A study of Mus musculus with 36 samples.

Results

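Messenger RNA of the left ventricle was compared between mice killed at ZT11 and mice killed at ZT07 after a SHAM operation, in which the chest is opened but the aorta is left unconstricted. The comparison used the 6 of 36 arrays whose titles gave SHAM with these times, 3 mice at ZT11 and 3 mice at ZT07, each array holding 1 heart collected 8 weeks after surgery. ZT stands for zeitgeber time, by convention counted in hours from lights on, so that both times fall in the usual rest phase of the mouse, 4 h apart. The labels used here describe the SHAM hearts as normal and do not give the strain, sex, age, light schedule or feeding of the mice. The series holds 12 groups of 3 mice, SHAM and transverse aortic constriction (TAC, a narrowing of the aorta that loads the ventricle with pressure) at 6 times each. The TAC hearts at ZT11 and ZT07, again 3 and 3, served as a second setting for the same interval.

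The heart burns mainly fatty acids and turns between fat and glucose as their supply changes. When fatty acids are plentiful, as in fasting, they activate the nuclear receptor PPAR alpha, which switches on genes that take up and oxidise fat and genes such as Pdk4 that hold back the oxidation of glucose. The cardiomyocyte also has its own circadian clock, a loop in which CLOCK and BMAL1 drive genes through E-box motifs and the REV-ERB repressors, PER and CRY proteins close the loop. Both the clock and the feeding cycle are known to give heart metabolism a daily course.

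Values were relative. Each probe set had a median of 0 over the 18 SHAM arrays, so a value gives the position of a heart on a log scale, taken as log2, against the middle of the SHAM hearts, and says nothing of how abundant a transcript is. Levels were therefore not compared between genes, and the cardiomyocyte markers, 12 of 12 measured, could not be read as present or absent. Their mean lay between -0.08 and 0.06 on the ZT11 arrays and between -0.003 and 0.007 on the ZT07 arrays. ZT11 replicate 3 stood apart from the other arrays. Rag1, a gene of lymphocyte receptor recombination, was at 5.68 on it, against a highest value of 0.10 among the remaining 17 hearts of the SHAM group. The mean of the 10 measured thymocyte markers was 1.94 there, against -0.02 to 0.02 on the other ZT11 arrays and -0.005 to 0.04 at ZT07. Means of proliferation markers (0.97), white adipocyte markers (1.12) and T and natural killer cell markers (0.81) were also highest there. The results below include this array unless they say otherwise. Arrays at the other times do not enter the difference of ZT11 and ZT07. They enter the estimate of its spread, the SHAM medians and the courses over the day. Among them, ZT23 replicate 3 had a high mean of airway markers (1.12). ZT03 replicate 3 had an SD over genes of 0.159, next to 0.236 for ZT11 replicate 3, and 29 genes passed without it. In whole tissue, fewer cells of a type and less RNA per cell cannot be told apart.

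At ZT11, compared with ZT07, the fuel genes Pdk4, Ucp3, Acot1 and Mlycd and the clock repressor gene Nr1d1 fell in the SHAM heart, while the glycogen gene Ppp1r3c and the circadian gene Noct rose. Of 12393 genes tested with limma, 22 passed at an adjusted p under 0.05, which is 0.178% of all genes. Of these, 15 were lower at ZT11 (0.121% of all genes) and 7 were higher (0.0565%). With each array centred on its own median the split was 13 lower and 12 higher. At an unadjusted p under 0.05, 642 genes were lower (5.18%) and 434 higher (3.5%), together 8.68% of all genes. The 3 ZT11 arrays and the 3 ZT07 arrays did not overlap for any of the 22, a pattern seen in 12.8% of all genes and tied to how these genes were chosen. The count leaned on single arrays. It was 11 (0.0888% of all genes) without ZT11 replicate 3, 14 without ZT11 replicate 1, 32 without ZT11 replicate 2, 12 without ZT07 replicate 1, 4 without ZT07 replicate 2 and 7 without ZT07 replicate 3. The 4 that passed without ZT07 replicate 2 were Pdk4, Nr1d1, Ucp3 and Aox1, and without ZT07 replicate 3 they were joined by Acot1, Clpx and Ppp1r3c. All 22 kept their direction in each of the 24 other settings run, and Pdk4 and Nr1d1 passed in all of them. The kept direction is no test. Leaving out arrays could not turn it, since the groups did not overlap, and several settings changed only the estimate of spread or the threshold.

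**Figure D1:**
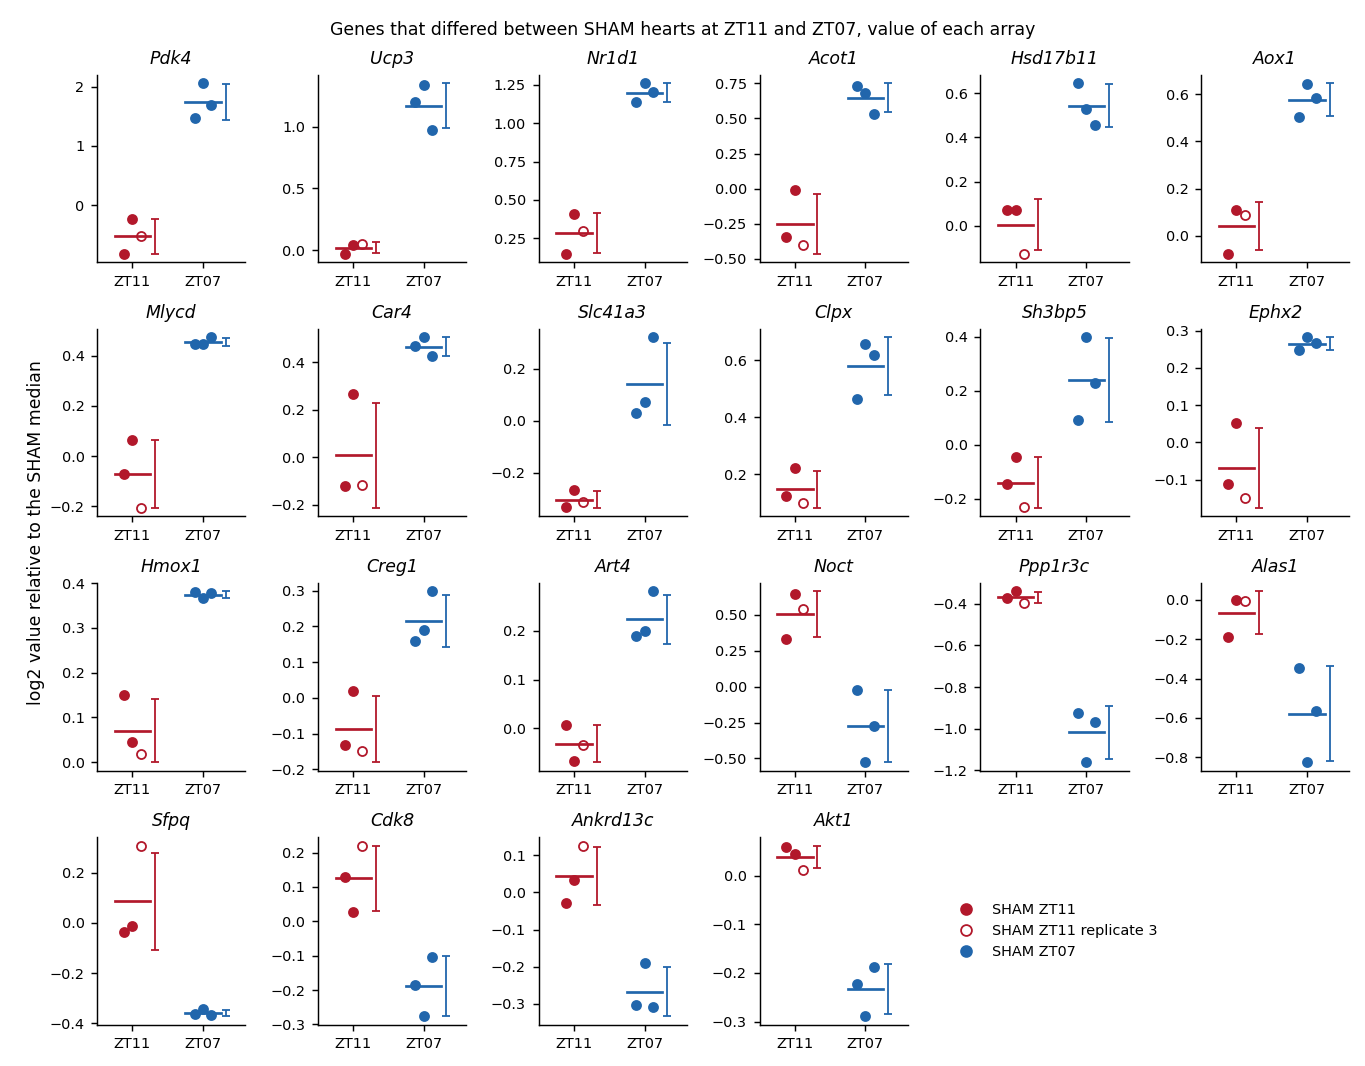
Values of the 22 genes that passed, on each of the 3 SHAM ZT11 arrays (red, replicate 3 open) and the 3 SHAM ZT07 arrays (blue). The vertical axis is the log2 value relative to the SHAM median, with its own range in every panel, the line is the mean and the bracket 1 SD either side. No gene has a ZT11 point between its ZT07 points, and Pdk4 spans the widest range, with ZT11 between -0.82 and -0.24 and ZT07 between 1.46 and 2.06.

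The largest fall was that of Pdk4, pyruvate dehydrogenase kinase 4, which switches off the entry of pyruvate into the tricarboxylic acid cycle and so spares glucose. Pdk4 was at -0.82, -0.24 and -0.53 on the ZT11 arrays, against 1.46, 2.06 and 1.69 on the ZT07 arrays. All 3 ZT07 hearts lay far above all 3 ZT11 hearts. The difference was -2.26 ± 0.20 (SE, n = 3 per time; 95% interval -2.69 to -1.84), a fold of 4.80 lower at ZT11 (limma adjusted p = 2.07e-05). Over the day the Pdk4 means were 0.31 at ZT03, 1.74 at ZT07, -0.53 at ZT11, 0.09 at ZT15, -0.23 at ZT19 and 0.02 at ZT23. Among the 6 times ZT07 was thus the highest and ZT11 the lowest.

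Ucp3, a mitochondrial carrier of heart and skeletal muscle whose expression follows fatty acid supply, was at -0.03, 0.04 and 0.05 at ZT11, against 1.20, 1.34 and 0.98 at ZT07. It fell by 1.15 ± 0.12 on the log2 scale (fold 2.22, limma adjusted p = 9.44e-05), with ZT07 again the highest of the 6 times. Its 2 probe sets gave -0.96 and -1.34. Acot1, a cytosolic thioesterase that releases free fatty acids from acyl-CoA, had values of -0.35, -0.01 and -0.40 at ZT11, against 0.73, 0.68 and 0.53 at ZT07. The difference was -0.90 ± 0.13 (fold 1.87, limma adjusted p = 0.00528), and -0.83 without ZT11 replicate 3 (adjusted p = 0.0273). Without ZT07 replicate 2, Acot1 no longer passed (adjusted p = 0.0531). Mlycd, malonyl-CoA decarboxylase, removes the malonyl-CoA that blocks entry of fatty acids into mitochondria. Mlycd was at -0.07, 0.07 and -0.21 at ZT11, against 0.45, 0.45 and 0.47 at ZT07, a fall of 0.53 ± 0.09 (limma adjusted p = 0.0198). The ZT07 hearts were nearly alike and the ZT11 hearts spread out below them. Without ZT11 replicate 3 the fall of Mlycd was 0.46 and did not pass (adjusted p = 0.0997).

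The windows around the starts of the gene with the largest fall, a fall with receptor motifs and the glycogen gene that rose are shown because the genes moved in the same interval and a reader may wish to search them. They are RefSeq sequences of GRCm38.p6, from 250 bases before to 50 after the annotated start, in lower case, with matches in capitals (AGGTCA, the recognition core of nuclear receptors such as PPAR alpha, in Ucp3; the E-box CACGTG in Ppp1r3c). The Pdk4 window lies at chr6:5496229-5496528 on the minus strand, the Ucp3 window at chr7:100472741-100473040 on the plus strand and the Ppp1r3c window at chr19:36736555-36736854 on the minus strand.
Pdk4: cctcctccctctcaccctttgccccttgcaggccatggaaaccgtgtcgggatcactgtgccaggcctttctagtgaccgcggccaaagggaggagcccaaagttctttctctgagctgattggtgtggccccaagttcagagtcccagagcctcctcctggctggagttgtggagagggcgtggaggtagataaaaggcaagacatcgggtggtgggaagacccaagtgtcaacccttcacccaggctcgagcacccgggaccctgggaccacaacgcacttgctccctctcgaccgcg
Ucp3: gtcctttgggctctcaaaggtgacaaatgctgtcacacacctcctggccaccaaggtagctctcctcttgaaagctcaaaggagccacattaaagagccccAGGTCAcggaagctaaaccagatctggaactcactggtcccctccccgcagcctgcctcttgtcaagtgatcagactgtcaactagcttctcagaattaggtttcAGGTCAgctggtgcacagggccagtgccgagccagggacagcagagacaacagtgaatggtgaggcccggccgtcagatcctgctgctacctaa
Ppp1r3c: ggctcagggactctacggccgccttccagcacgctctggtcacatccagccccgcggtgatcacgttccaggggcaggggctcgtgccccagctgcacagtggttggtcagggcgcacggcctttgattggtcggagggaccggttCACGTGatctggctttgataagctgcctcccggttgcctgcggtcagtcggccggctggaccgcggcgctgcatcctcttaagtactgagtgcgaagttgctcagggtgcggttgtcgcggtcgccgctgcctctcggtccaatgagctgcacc
The Ucp3 window holds 2 matches, the Ppp1r3c window 1, and the Pdk4 window none of the 6 motifs searched. Windows were found for 20 of the 22 genes, in 23 windows with alternative starts, and not for Hmox1 and Ephx2. Each motif was searched on both strands and counted by itself, whether or not it overlapped another. AGGTCA was in 2 of the 23 windows (Akt1 and Ucp3) and in 16.3% of all 32851 windows. CACGTG was in 3 (Cdk8, Ppp1r3c and Slc41a3) and in 7.15% of all windows, and the D-box TTANGTAA in 0 and in 2.32%. The glucocorticoid receptor core ACANNNTGT was in 3 (Acot1, Aox1 and Sh3bp5) and in 6.85% of all windows. The CREB-like motif TGACGNNA was in 1 (Ankrd13c) and in 6.61%, and the heat shock motif GAANNTTC in 1 (Sh3bp5) and in 7.86%. A match is a description of these letters and not evidence of binding.

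Most other genes of the fuel lists were also lower at ZT11 without passing over all genes. Of 27 genes of a PPAR alpha and fasting list, 22 were measured, 20 were lower at ZT11 and 3 passed. Of 26 genes of fatty acid uptake and oxidation, 23 were measured, 22 were lower and 1 passed. The share of all genes that were lower and passed was 0.121%, and the median difference of all genes was itself negative. The lists share 6 genes. Together they held 39 genes, of which 36 were lower, 22 had an unadjusted p under 0.05 in that direction (5.18% of all genes did) and 33 had their highest mean of the 6 times at ZT07 (18.6% of all genes did). The median difference was -0.23 for the fasting list and -0.13 for the oxidation list, against -0.02 for all genes. Without ZT11 replicate 3 these medians were -0.23, -0.13 and -0.01. The number with an unadjusted p under 0.05 ran from 12 to 15 for the fasting list over all settings, and from 7 (without all arrays of replicate number 3) to 14 for the oxidation list, whose count was 12. Both lists were chosen with earlier results of these data known.

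**Figure D2:**
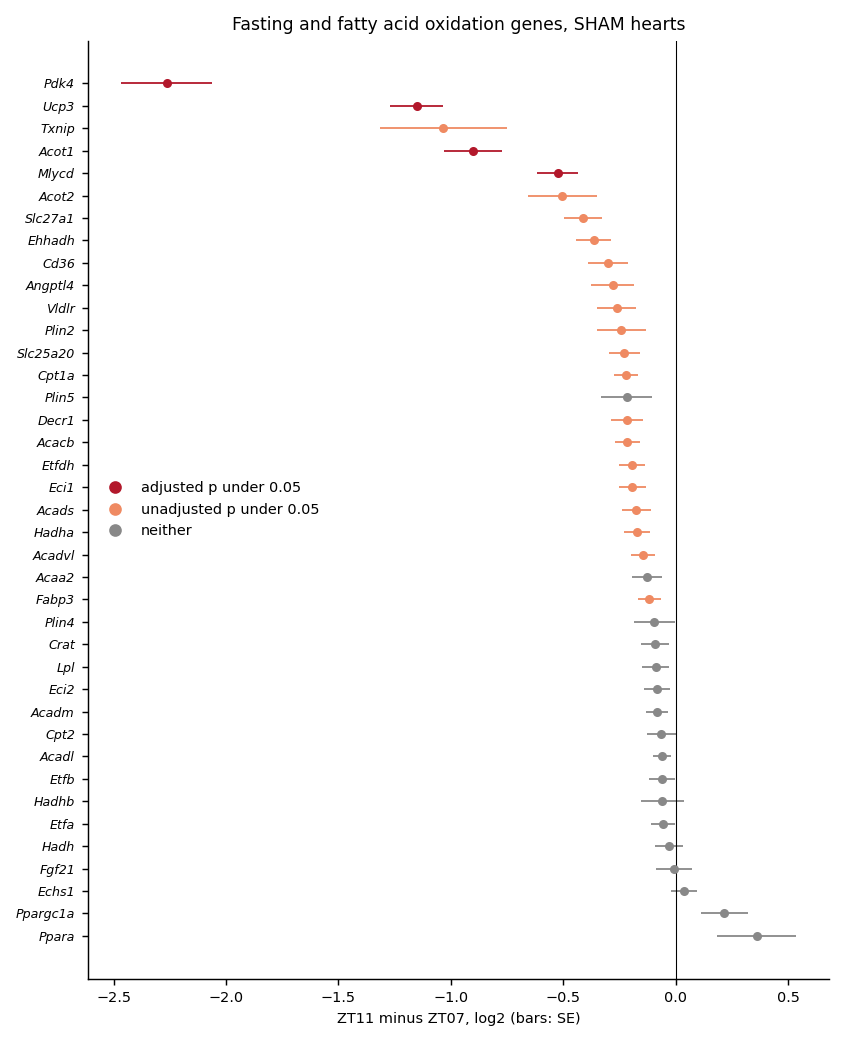
Differences of ZT11 minus ZT07 on the log2 scale for the 39 measured genes of the fasting and fatty acid oxidation lists, with 1 SE either side. Dark red marks an adjusted p under 0.05 over all genes, orange an unadjusted p under 0.05. Points lie left of 0 for 36 genes, and Echs1, Ppargc1a and Ppara lie right of it.

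Among members that did not pass, Txnip, which restrains glucose uptake and was singled out after its values were seen, had the largest difference. It was at -0.34, 0.10 and 0.02 at ZT11, against 0.81, 0.95 and 1.11 at ZT07, a difference of -1.03 ± 0.28 (limma adjusted p = 0.181). The groups of Txnip did not overlap, but its spread at other times of day was wide, with an SD of 0.66 at ZT15. Slc27a1, a fatty acid transport protein, differed by -0.41 ± 0.09 (adjusted p = 0.0747), and Cd36, the main fatty acid translocase of the heart, by -0.30 ± 0.09 (adjusted p = 0.271). Ehhadh, a peroxisomal enzyme of fat oxidation, differed by -0.36 ± 0.08 (adjusted p = 0.0799) and passed without ZT11 replicate 3. Angptl4, an inhibitor of lipoprotein lipase induced in fasting, differed by -0.28 ± 0.10 (adjusted p = 0.383). Acot2, the mitochondrial relative of Acot1, differed by -0.50 ± 0.15 (adjusted p = 0.292), and Cpt1a, a form of the enzyme that admits fatty acids to mitochondria, by -0.22 ± 0.05 (adjusted p = 0.112). Both were also named after their values were seen. Acacb, which makes malonyl-CoA at the mitochondrion and so opposes Mlycd, differed by -0.22 ± 0.06 (adjusted p = 0.147).

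The genes of the regulators themselves were not lower. Ppara, the receptor gene, was at -0.13, 0.37 and 0.15 at ZT11, against -0.22, -0.30 and -0.18 at ZT07, a difference of 0.36 ± 0.17 (limma adjusted p = 0.578). Its coactivator gene Ppargc1a differed by 0.22 ± 0.10 (adjusted p = 0.578). The ZT11 values of Ppara lay above its ZT07 values, while those of Ppargc1a overlapped them.

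Further along fat metabolism, no member of the triglyceride storage and lipolysis list passed (21 measured). At an unadjusted p under 0.05, 4 were lower and 2 higher, where 5.18% of all genes were lower and 3.5% higher. Gpam, the first enzyme of triglyceride synthesis, was at 0.05, 0.14 and -0.06 at ZT11, against 0.46, 0.56 and 0.46 at ZT07, a difference of -0.45 ± 0.10 (limma adjusted p = 0.0844). Pnpla2, the triglyceride lipase ATGL, differed by -0.21 ± 0.06 (adjusted p = 0.163), Agpat3 by -0.16 ± 0.06 (adjusted p = 0.449), and the phosphatidate phosphatase gene Lpin1 by 0.21 ± 0.07 (adjusted p = 0.312). The machinery downstream of fuel choice showed no such shift. Of 44 genes of oxidative phosphorylation and 21 of the tricarboxylic acid cycle, 0 passed and 0 had an unadjusted p under 0.05 in limma. Of all genes 8.68% had one. The medians of these lists were -0.003 and 0.001.

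Other genes of lipid and oxidant metabolism fell with the fuel genes. Aox1, aldehyde oxidase, was at -0.08, 0.11 and 0.09 at ZT11, against 0.50, 0.64 and 0.59 at ZT07, a fall of 0.54 ± 0.07 (limma adjusted p = 0.0028), and it passed without each of the 6 arrays in turn. Hsd17b11, an enzyme found on lipid droplets, fell by 0.54 ± 0.10 (adjusted p = 0.0273), although its 2 probe sets gave -0.25 and -0.83. Ephx2, the soluble epoxide hydrolase that degrades lipid epoxides, fell by 0.33 ± 0.05 (adjusted p = 0.00984). Hmox1, heme oxygenase 1, was at 0.15, 0.04 and 0.02 at ZT11, against 0.38, 0.37 and 0.38 at ZT07. It fell by 0.30 ± 0.05 (adjusted p = 0.0095) as the only passing member of 23 measured oxidative stress genes, among which Gclm (-0.31 ± 0.10, adjusted p = 0.312) and Nqo1 (-0.21 ± 0.08, adjusted p = 0.409) did not pass.

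The remaining falls were of varied roles. Clpx, the chaperone subunit of a mitochondrial protease that also activates heme synthesis, was at 0.12, 0.22 and 0.10 at ZT11, against 0.47, 0.66 and 0.62 at ZT07, a fall of 0.43 ± 0.06 (limma adjusted p = 0.00528). Car4, a carbonic anhydrase of the cell surface, fell by 0.46 ± 0.09 (adjusted p = 0.0417). Slc41a3, a magnesium transporter gene, fell by 0.44 ± 0.08 (adjusted p = 0.0187). Sh3bp5 fell by 0.38 ± 0.07 (adjusted p = 0.0417), Creg1, a secreted glycoprotein gene, by 0.30 ± 0.05 and Art4, an ADP-ribosyltransferase family gene, by 0.26 ± 0.05 (adjusted p = 0.0273 for both). Without ZT11 replicate 3, of the 15 falls only Pdk4, Nr1d1, Ucp3, Acot1, Aox1 and Clpx passed, with adjusted p of 0.0572 to 0.168 for the other 9.

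The rises began with Noct, nocturnin, a circadian enzyme first known as a deadenylase. Noct was at 0.33, 0.64 and 0.54 at ZT11, against -0.03, -0.53 and -0.27 at ZT07, a rise of 0.78 ± 0.12 (fold 1.72, limma adjusted p = 0.00801). Its means went on to 0.57 at ZT15 and were lowest at ZT03, at -0.57, so the interval lay within a longer climb. Ppp1r3c, a regulatory subunit that brings protein phosphatase 1 to glycogen and promotes its synthesis, was at -0.37, -0.34 and -0.40 at ZT11, against -0.92, -1.16 and -0.97 at ZT07. It rose by 0.65 ± 0.10 (fold 1.57, adjusted p = 0.00801). Its ZT07 mean of -1.02 was the lowest of the 6 times, and the other 4 means lay between 0.03 and 0.15, so that at ZT11 it was still below them. Both passed without ZT11 replicate 3, and neither passed without ZT07 replicate 2 or when the means of atrial and adipocyte markers were added to the model. Without ZT07 replicate 3, Noct did not pass either.

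Alas1, the first enzyme of heme synthesis, was at -0.19, -0.001 and -0.01 at ZT11, against -0.35, -0.82 and -0.57 at ZT07, a rise of 0.51 ± 0.09 (limma adjusted p = 0.0296). Its 2 probe sets gave 0.71 and 0.32. Sfpq, a nuclear RNA-binding protein of splicing and paraspeckles, was at -0.04, -0.01 and 0.31 at ZT11, against -0.36, -0.35 and -0.37 at ZT07, a rise of 0.45 ± 0.07 (adjusted p = 0.00984). The highest value was that of ZT11 replicate 3, and without it the rise was 0.33 (adjusted p = 0.0155), while its 5 probe sets ranged from 0.15 to 0.95. Akt1, a kinase of insulin signalling, rose by 0.27 ± 0.05 (adjusted p = 0.0426), Ankrd13c by 0.31 ± 0.06 (adjusted p = 0.0318) and Cdk8, a kinase of the Mediator complex, by 0.31 ± 0.06 (adjusted p = 0.0435). Without ZT11 replicate 3, Alas1, Akt1, Ankrd13c and Cdk8 had adjusted p of 0.0997 to 0.183.

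ZT07 stood out from the whole day for nearly all these genes. It had the highest of the 6 SHAM means for 14 of the 15 that fell, the exception being Slc41a3, which was highest at ZT03 (0.61) and lowest at ZT15 (-0.50). It had the lowest mean for 6 of the 7 that rose, the exception being Noct. ZT11 was the lowest time for 3 of the 15 falls and the highest for 1 of the 7 rises. Over all genes ZT07 was highest in 18.6% and lowest in 13.8%. The genes were chosen on the ZT07 arrays, so these counts describe them and test nothing.

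**Figure D3:**
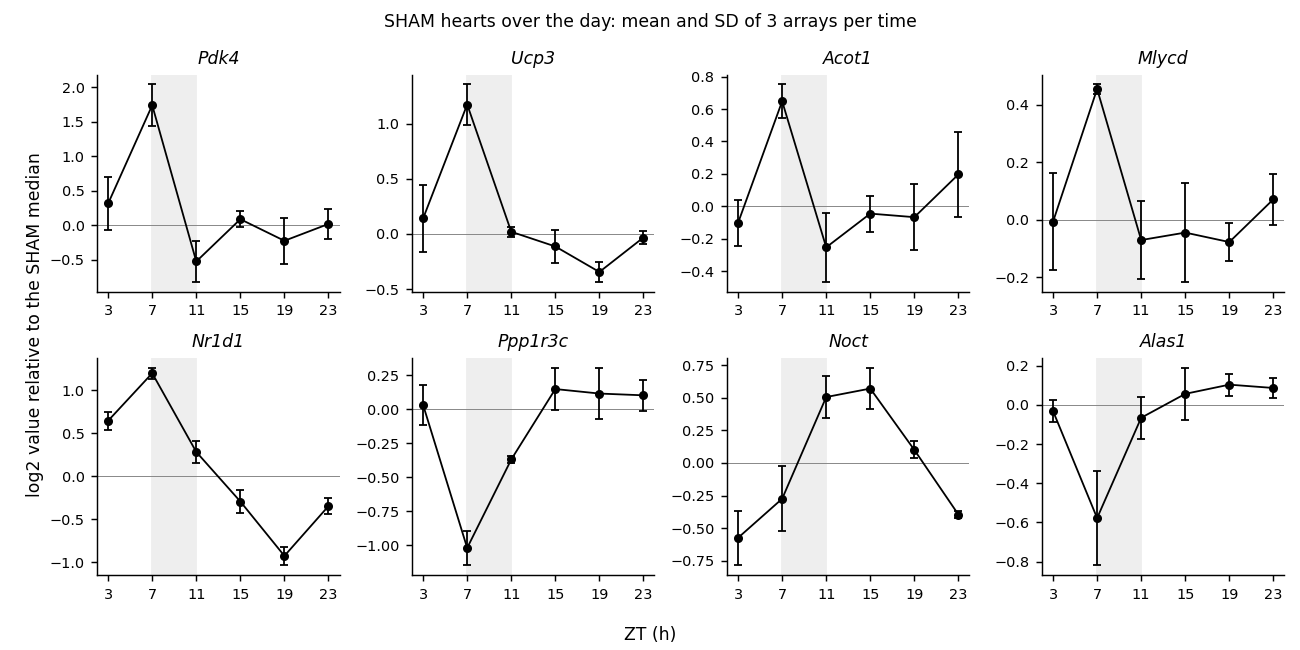
Means over the 6 times of day in SHAM hearts for 8 of the 22 genes, with 1 SD of the 3 arrays either side. The horizontal axis is ZT in hours, the vertical axis the log2 value relative to the SHAM median with its own range in every panel, and the grey band marks ZT07 to ZT11. Pdk4, Ucp3, Acot1 and Mlycd have a single high mean at ZT07, Alas1 has a single low one and Ppp1r3c its lowest there with ZT11 next, while Nr1d1 declines on to ZT19 and Noct climbs to ZT15.

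Of the clock itself, Nr1d1 passed. Nr1d1 encodes the repressor REV-ERB alpha and was at 0.15, 0.41 and 0.30 at ZT11, against 1.14, 1.26 and 1.20 at ZT07, a fall of 0.91 ± 0.08 (fold 1.89, limma adjusted p = 2.07e-05). Its means over the day were 0.65 at ZT03, 1.20 at ZT07, 0.28 at ZT11, -0.29 at ZT15, -0.92 at ZT19 and -0.35 at ZT23, a decline that went on past ZT11. Of 25 clock genes 22 were measured, and the other 21 did not pass. At an unadjusted p under 0.05, 3 of the 22 were higher and 2 lower, Nr1d1 included. Of all genes, 3.5% were higher and 5.18% lower. Dbp, an output factor of the clock, was at 1.46, 1.96 and 2.03 at ZT11, against 1.84, 1.73 and 1.90 at ZT07, a difference of -0.01 ± 0.15 (adjusted p = 0.991), so both times were high and overlapped. Its relatives Tef and Hlf differed by 0.13 ± 0.05 (adjusted p = 0.501) and 0.19 ± 0.08 (adjusted p = 0.496). Nr1d2, which encodes REV-ERB beta, differed by 0.11 ± 0.11 (adjusted p = 0.773), with values overlapping where those of Nr1d1 did not. The difference between these paralogs was not tested.

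Among the negative arm of the loop, Per1 differed by -0.13 ± 0.12 (limma adjusted p = 0.767), Per2 by 0.13 ± 0.07 (adjusted p = 0.588) and Cry1 by 0.14 ± 0.06 (adjusted p = 0.551). The activator genes Arntl, which encodes BMAL1, and Clock differed by -0.05 ± 0.07 (adjusted p = 0.85) and -0.13 ± 0.04 (adjusted p = 0.381). The repressor gene Bhlhe40 differed by -0.02 ± 0.08 (adjusted p = 0.954). The 11 other members lay between -0.07 and 0.10. Without ZT11 replicate 3 the differences of Dbp, Per1, Arntl and Bhlhe40 were -0.11, -0.08, -0.09 and -0.03, none of which passed. Of 14 measured clock output genes 0 passed. At an unadjusted p under 0.05, 4 were higher and 2 lower, where 3.5% of all genes were higher and 5.18% lower. Among them Herpud1, of endoplasmic reticulum protein degradation, differed by 0.32 ± 0.08 (adjusted p = 0.102) and the mitotic kinase gene Wee1 by 0.33 ± 0.08 (adjusted p = 0.141).

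Of 40 pathway lists, 8 held a gene that passed, and Pdk4 accounts for both the glucocorticoid list (25 measured) and the glucose uptake and glycolysis list (25 measured). Hk2 and Pgam1, enzymes of glycolysis, differed by 0.23 ± 0.05 (adjusted p = 0.103) and 0.45 ± 0.12 (adjusted p = 0.178). Pgam1 was at -0.33, -0.38 and 0.21 at ZT11, the last being replicate 3, against -0.53, -0.77 and -0.55 at ZT07, and without that array it differed by 0.26 (adjusted p = 0.547). On the glycogen list (14 measured) Stbd1, a glycogen-binding protein, differed by 0.26 ± 0.12 (adjusted p = 0.551) beside Ppp1r3c. The insulin, FOXO and mTOR list (26 measured) held Akt1, and next to it Sesn1, a sestrin that restrains mTOR (0.44 ± 0.14, adjusted p = 0.377), the insulin receptor substrate gene Irs1 (-0.38 ± 0.13, adjusted p = 0.383) and Eif4ebp1, a brake on translation (-0.14 ± 0.05, adjusted p = 0.395). Ubiquitin ligase and autophagy genes had 0 passing members of 21. At an unadjusted p under 0.05, 7 were lower, or 5 without ZT11 replicate 3, where 5.18% of all genes were lower. Among them were Fbxo21 (-0.22 ± 0.05, adjusted p = 0.112), the autophagy receptor gene Sqstm1 (-0.29 ± 0.07, adjusted p = 0.139, and -0.19 without ZT11 replicate 3), Fbxo31 (-0.20 ± 0.06, adjusted p = 0.292) and the mitophagy receptor gene Bnip3 (-0.22 ± 0.07, adjusted p = 0.349).

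In limma, 0 of 22 calcium handling, 30 TGF beta and BMP, 31 proteasome and 8 chaperonin genes passed or had an unadjusted p under 0.05 (1 proteasome gene did without ZT11 replicate 3). Of all genes 8.68% had an unadjusted p under 0.05. The adrenergic, disc, cold-inducible, interferon and unfolded protein lists of the next sentences also held 0 passing members. Adrenergic genes (16 measured) included Adra1b, an alpha adrenergic receptor (-0.44 ± 0.10, adjusted p = 0.0925), and Grk5, a receptor kinase (-0.37 ± 0.12, adjusted p = 0.35). Of 27 genes of the Z-disc and intercalated disc, Xirp1 differed by -0.29 ± 0.07 (adjusted p = 0.139) and the junction gene Jup by -0.21 ± 0.06 (adjusted p = 0.178). Fhl2 of the same list differed by 0.16 ± 0.06 (adjusted p = 0.385). Without ZT11 replicate 3, Xirp1 differed by -0.195 (adjusted p = 0.513), Jup by -0.185 (adjusted p = 0.521) and Fhl2 by 0.22 (adjusted p = 0.211). The median of the disc list was -0.06 with that array and 0.02 without it. Cirbp, the cold-inducible RNA-binding protein, differed by -0.43 ± 0.11 (adjusted p = 0.159). Socs2, a suppressor of cytokine signalling, was at 0.34, 0.32 and 0.08 at ZT11, against -0.13, -0.17 and -0.13 at ZT07, a difference of 0.39 ± 0.08 (adjusted p = 0.0747), and it passed without ZT11 replicate 3. Ddit3, a factor of the unfolded protein response, differed by 0.23 ± 0.07 (adjusted p = 0.312).

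ZT11 replicate 3 set the position of some lists. Splicing factors (31 measured) had 7 members higher at an unadjusted p under 0.05 (3.5% of all genes were) and a median of 0.09, against 5 members and 0.001 without that array. Of them Luc7l3 differed by 0.22 ± 0.06 (limma adjusted p = 0.139), Tra2b by 0.42 ± 0.11 (adjusted p = 0.163), Srsf10 by 0.24 ± 0.07 (adjusted p = 0.298) and Srsf1 by 0.34 ± 0.11 (adjusted p = 0.312). Without the array Tra2b differed by 0.28 (adjusted p = 0.574) and Srsf1 by 0.18 (adjusted p = 0.852). Fatty acid synthesis genes (16 measured) had a median of 0.22 with the array and -0.07 without it, and cytosolic ribosome genes (30 measured) one of 0.08 and -0.002. The medians of the fasting and fatty acid oxidation lists were -0.23 and -0.13 both with and without it.

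**Figure D4:**
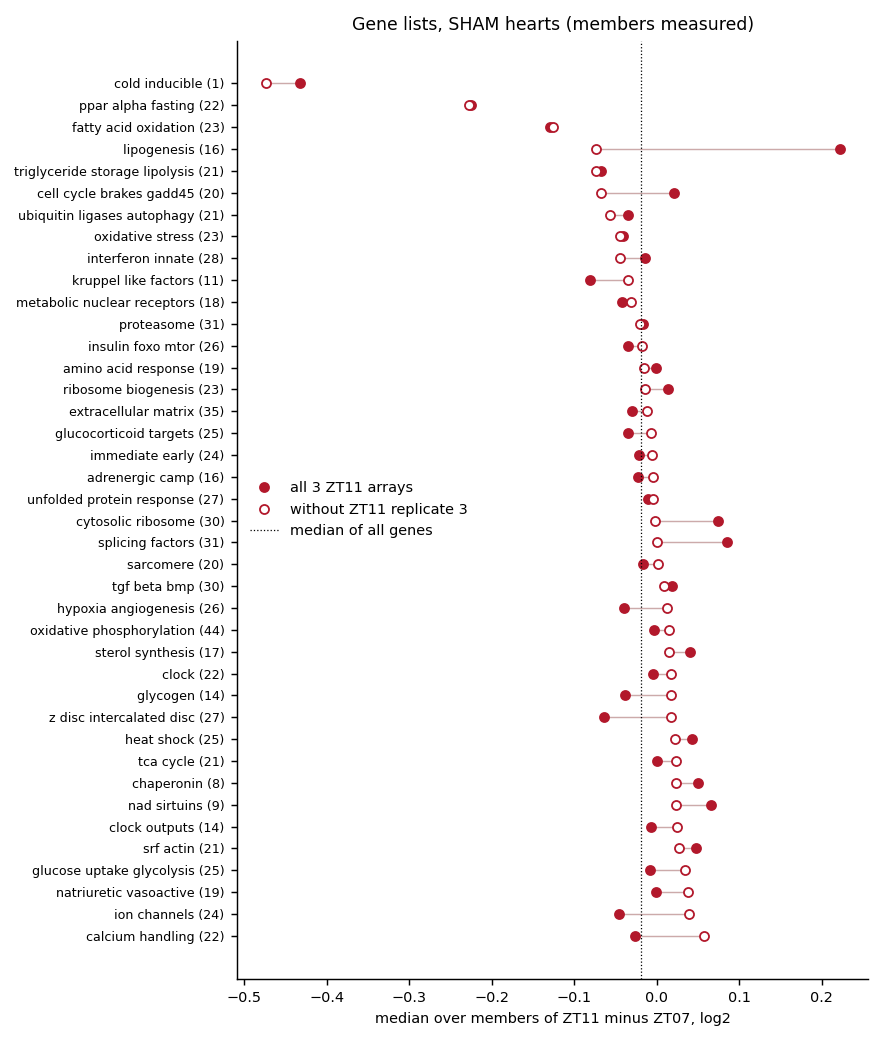
Median difference of ZT11 minus ZT07 on the log2 scale over the measured members of each of the 40 pathway lists, with all 3 ZT11 arrays (filled) and without ZT11 replicate 3 (open). The number of members measured stands in brackets and the dotted line is the median of all genes, -0.02. The fasting and fatty acid oxidation lists sit at -0.23 and -0.13 with both symbols, while the fatty acid synthesis list (lipogenesis) sits at 0.22 and -0.07, and the cold-inducible list is a single gene.

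Among the marker lists, those of thymocytes, proliferation and atrial myocardium had the largest median differences. These were 0.49 for thymocytes and 0.35 for proliferation, against -0.01 and 0.00 without ZT11 replicate 3. White adipocyte markers (9 measured) had a median difference of 0.19 with that array and -0.19 without it. For the atrial markers it was 0.27 with the array and 0.21 without it. The mean of the 8 measured atrial markers was -0.04, -0.72 and -0.03 on the ZT11 arrays, against -0.36, -0.87 and -0.51 at ZT07 and -0.34 to 0.26 on the other SHAM arrays. All 8 were higher at ZT11, 1 of them at an unadjusted p under 0.05 (3.5% of all genes were). The groups overlapped through ZT11 replicate 2. With the means of the atrial and white adipocyte markers as covariates 6 genes passed, among them Pdk4, Nr1d1, Ucp3, Acot1 and Aox1. The part of the atrial share in the other results was not tested. Macrophage markers (12 measured) had 5 members higher at an unadjusted p under 0.05 (3.5% of all genes were), or 1 without ZT11 replicate 3. Their mean lay between -0.09 and 0.08 at ZT11, against -0.18 to -0.08 at ZT07. Endothelial markers (12 measured) had 2 members lower at that threshold (5.18% of all genes were), or 0 without that array. Their mean lay between -0.27 and -0.14 at ZT11, against -0.16 to -0.05 at ZT07. The median difference of the macrophage list was 0.15 with the array and 0.08 without it, and that of the endothelial list -0.12 and -0.08.

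After TAC fewer genes passed over the same interval. Each count rests on the spread within its own surgery, so the counts do not test a difference between the surgeries. In limma on the 18 TAC arrays 1 gene passed (0.00807% of all genes), Nr1d1, and 277 had an unadjusted p under 0.05 (2.24%). Nr1d1 changed by -0.91 ± 0.08 in SHAM hearts and by -1.04 ± 0.13 in TAC hearts, a difference between the changes of 0.13 (adjusted p = 0.995), with an interval of -0.20 to 0.46. After quantile normalization this difference was 0.53 ± 0.32 (adjusted p = 0.999). Noct changed by 0.78 ± 0.12 in SHAM hearts and by 0.77 ± 0.19 in TAC hearts, a difference of 0.01 with an interval of -0.48 to 0.50. Of the 22 genes, 19 had the same sign in TAC hearts (52.3% of all genes did), 5 of them at an unadjusted p under 0.05. For 21 of the 22 the change was larger in SHAM hearts, where the genes had been chosen.

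**Figure D5:**
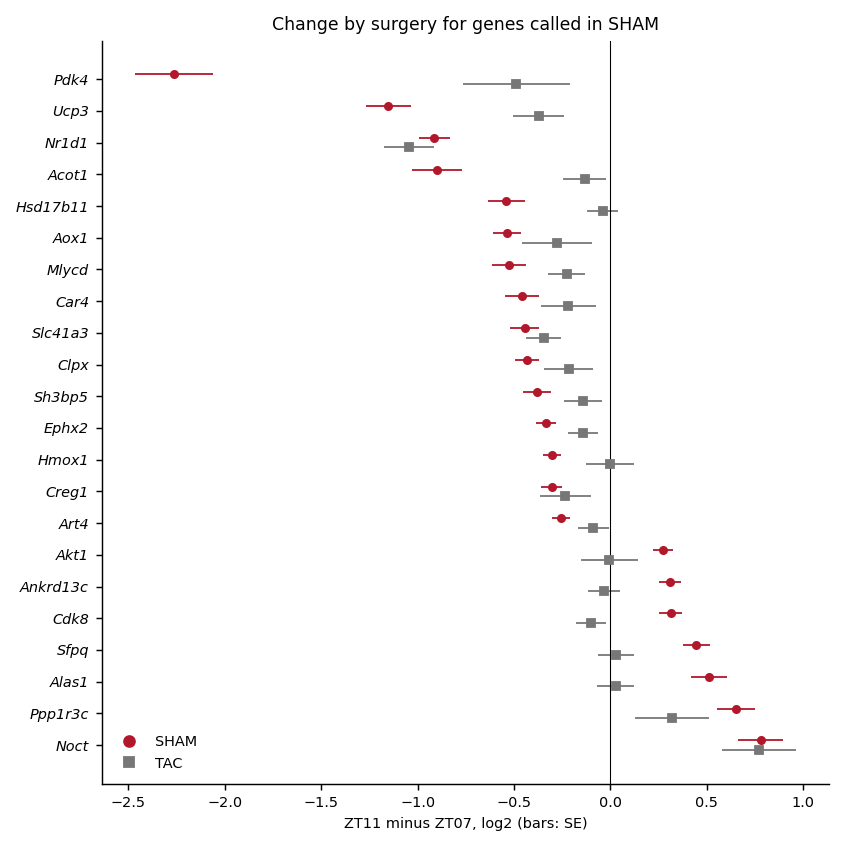
Change of ZT11 minus ZT07 on the log2 scale for the 22 genes in SHAM hearts (red circles) and TAC hearts (grey squares), with 1 SE either side. The points of Nr1d1 lie at -0.91 in SHAM and -1.04 in TAC hearts, and those of Noct at 0.78 and 0.77. Pdk4, Ucp3 and Acot1 lie nearer to 0 in TAC hearts. Their differences between the surgeries did not pass over all genes with every array kept and no array weights.

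Of the 22 genes, Pdk4, Ucp3 and Acot1 differed most between the surgeries. In limma with every array kept and no array weights, no difference passed over all genes. With array weights the adjusted p in limma was 0.002 for Pdk4, 0.00243 for Ucp3, 0.0476 for Acot1 and 0.0304 for Cdk8, among 218 genes that passed. Hsd17b11 (0.00351), Sfpq (0.0281) and Alas1 (0.0427) also passed with array weights. Pdk4 was at -0.38, -0.63 and -0.07 on the TAC ZT11 arrays, against 0.85, -0.51 and 0.04 on the TAC ZT07 arrays, so the times overlapped. Its change was -2.26 ± 0.20 in SHAM hearts and -0.49 ± 0.28 in TAC hearts, a difference of -1.78 ± 0.37 (95% interval -2.53 to -1.02, limma adjusted p = 0.509 over all genes). Single arrays moved this value in both directions. Without TAC ZT07 replicate 1 the difference was -2.14 and passed (limma adjusted p = 0.0103). Without TAC ZT07 replicate 2 it was -1.46 (adjusted p = 0.993), and without SHAM ZT07 replicate 2 it was -1.61 (adjusted p = 0.999). Ucp3 changed by -1.15 ± 0.12 in SHAM hearts and -0.37 ± 0.13 in TAC hearts (difference -0.78 ± 0.19, adjusted p = 0.78), and Acot1 by -0.90 ± 0.13 and -0.13 ± 0.11 (difference -0.77 ± 0.18, adjusted p = 0.78). Ucp3 was at -0.35 on TAC ZT11 replicate 2, against 0.14 and 0.06 on the other TAC ZT11 arrays. Its difference was -0.93 without that array and -0.68 without TAC ZT11 replicate 1, and passed in neither case. Cdk8 changed by 0.31 ± 0.06 in SHAM hearts and -0.10 ± 0.08 in TAC hearts, a difference of 0.42 ± 0.10 (adjusted p = 0.78). The difference between the changes had an unadjusted p under 0.05 for 10 of the 22 genes and for 3.58% of all genes, and an adjusted p under 0.05 for 0 of 12393. The 22 genes were chosen for their SHAM change, which enters this difference, so the count of 10 describes them and tests nothing. The fasting list had a median of -0.23 in SHAM hearts and -0.10 in TAC hearts. The fatty acid oxidation list went the other way, with -0.13 in SHAM hearts and -0.17 in TAC hearts. Neither difference between the surgeries was tested. Values had been centred within each surgery before deposit, so the changes could be compared but not the levels.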

How the data were processed

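Left ventricles of SHAM and TAC mice were measured on 36 Affymetrix arrays, 3 mice per group, from 6 ug of Trizol-extracted total RNA labelled with biotin, per the labels' protocols. The authors deposited a table of log-scale values, taken here as log2, for 22690 probe sets. The base of the logarithm, the probe summary method and any scaling between arrays were not given in the sources used here. Tested on the table, probe set medians were 0 to within 1e-06 in each surgery (18 arrays each), so the deposited values are centred. Array medians ran from -0.0358 to 0.0275, and 0 pairs of arrays were identical. Scanner signals were not analysed here, so no filter on dim probe sets was possible, and the number of arrays limits precision.

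Groups were taken from the sample titles. Of the probe sets, 20393 had 1 gene symbol in the platform annotation (13 controls, left out), 691 several and 1606 none. Values of the 20380 probe sets used were averaged per gene, which left 12393 genes, 4956 of them with more than 1 probe set. Of the probe sets used, 20351 matched an Entrez identifier and 0 changed symbol.

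ZT11 minus ZT07 was tested with limma 3.58.1 in R 4.3.3, with a mean for each of the 6 SHAM times over 18 arrays, 12 residual degrees of freedom and Benjamini-Hochberg adjustment over all genes. The SE is limma's moderated one, which borrows the spread of the other SHAM times. The TAC contrast was fitted likewise, and the difference of the changes over all 36 arrays. The method was tested on simulated data. Alternatives were other arrays in the fit, quantile normalization, median centring, array weights, other variance settings, other probe set rules, a fold minimum of 1.5, marker covariates, the replicate number as a block, and leaving out arrays. Leaving out SHAM ZT03 replicate 3, alone or with ZT11 replicate 3, was added after the data had been seen.

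The genes eligible to be named were all that passed, clock genes, the up to 4 members of each of 40 pathway lists with the smallest p, and genes that passed for the difference of changes (0). Others are said to be chosen after their values were seen. The members and lists, 22 marker lists included, were chosen with earlier results of these data known. Promoter windows came from RefSeq (GRCm38.p6). Figures were drawn with matplotlib 3.10.9.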

Additional observations from a re-analysis of the deposited data

How the results depend on the processing

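Of the 24 alternatives for the count of 22 genes, all kept the direction of all 22. For most alternatives this was fixed beforehand, since the ZT11 and ZT07 arrays did not overlap for these genes or the difference itself was left unchanged. Fewer genes passed with the 6 arrays alone (4), with all 36 arrays (11), with a fold of at least 1.5 (6), and with the means of atrial and white adipocyte markers in the model (6). Array weights gave 52 genes, 29 of them higher at ZT11. Leaving out single arrays or all arrays of 1 replicate number gave 4 to 32, and leaving out both ZT11 replicate 3 and ZT03 replicate 3, an alternative chosen after seeing the data, gave 14. Quantile normalization (23), median centring (25), an intensity trend (19), robust fitting (24), the probe set of largest SD (21), single probe sets (24), genes above the median SD (22) and leaving out ZT03 replicate 3 (29) stayed within 1.5 times. Ucp3 passed in 23 of the 24 alternatives, Acot1 in 21, Aox1 in 20, Clpx and Noct in 17, Ppp1r3c in 16 and Sfpq in 15. The other 13 of the 22 genes passed in 7 (Art4, Akt1, Car4 and Sh3bp5) to 13. The replicate number as a block gave 41 genes, the 22 among them. Deviations of same-numbered arrays correlated at 0.087, 0.15 and 0.17, and those of differently numbered arrays at -0.20 to 0.11. Same numbers thus tended to correlate more, though ZT11 replicate 1 correlated better with ZT07 replicate 2 (0.11) than with ZT07 replicate 1. The labels do not say what a replicate number marks, so the numbers were not taken to pair the samples, and a shared structure was not tested. The difference between the SHAM and TAC changes gave 0 genes after quantile normalization and with the block, 218 with array weights, and 0 to 3 when single arrays were left out. Dbp changed sign around its difference near 0, to 0.011 with median centring, 0.049 with array weights, 0.040 with the marker covariates, 0.168 without ZT11 replicate 1, 0.002 and 0.028 without ZT07 replicate 1 or 3, and 0.179 without replicate number 1, its values without arrays running from -0.126 to 0.179. Bhlhe40 changed to 0.009 without ZT11 replicate 1, against values down to -0.038 without other arrays. The cause of these changes was not tested. Dim probe sets could not be left out, since centring removed the levels.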
